A study of Mus musculus with 85 samples.

Results

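Mouse embryos that were still at the 2-cell stage after culture without pyruvate were compared with embryos in standard medium that had reached 4 cells at the same age, 55 h after the injection of human chorionic gonadotropin (hCG) that sets the time of ovulation. The members were chosen by their labels alone: the 4 libraries titled No pyruvate 2-cell latest and the 4 libraries titled Early 4-cell, 8 of the 85 samples in all. All embryos were wild type, of the strain B6C3F1/J. The first group was kept in KSOM medium from which pyruvate had been taken out and which held 0.2 mM glucose and 5 mM L-lactate; the 4-cell group had the same glucose and lactate and 0.2 mM pyruvate. Medium and cell number therefore differed together, and their parts in any difference cannot be told apart. How many embryos made up a library, and whether libraries came from separate cultures, is not given in the sources used here. P-values therefore measure the spread between libraries, which may be technical. For single genes limma pooled this spread over all standard and pyruvate-free groups up to 55 h, not only the 8 libraries compared. Among genes with a mean of at least 10 CPM, the median SD (log2) was 0.369 without pyruvate and 0.283 in the 4-cell group. The pooled spread may therefore understate that of these libraries. Genes that passed the test numbered 11854 of 20737 tested. When only these 8 libraries were fitted they numbered 8264 of 17173, so part of the drop is of genes no longer tested. Libraries were made from whole embryos, so fewer cells with a transcript and less of it per cell cannot be told apart, and values are shares of a library, not amounts per embryo.

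Mouse embryos take up pyruvate as their main fuel during the first cleavages and rely less on glucose until later. During the 2-cell stage the RNA stored in the oocyte is degraded and the embryonic genome is switched on, with a burst of transcripts from gene families such as Zscan4, Tdpoz and Usp17l that is shut off again before the 4-cell stage. Genes for ribosomes, nucleotide synthesis and energy metabolism come up afterwards, and MYC is a transcription factor with many targets among them.

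Embryo markers were detected in both groups. Pou5f1, a pluripotency factor, had 7.85, 9.37, 7.54 and 9.95 CPM in 2-cell embryos without pyruvate, against 14.9, 18.1, 15.2 and 13.98 CPM in 4-cell embryos. Tead4, a factor of the first lineage decision, had 33.5, 27.8, 13.6 and 22.4 CPM in 2-cell embryos without pyruvate, against 91.4, 79.8, 94.6 and 72.8 CPM in 4-cell embryos, so both were lower in the 2-cell embryos in every library. Of the other embryo markers looked at, Obox6, Cdh1, H1foo, Btg4 and Zscan4d were higher (log2 changes of 0.47, 1.31, 1.40, 2.28 and 2.93). Zp3 overlapped between the groups (log2 change -0.24), as did Cdh1. Depth was inferred from the most frequent low value of each library, taken as 1 read. By this estimate it was 10.2 to 18.7 M reads without pyruvate and 27.1 to 42.6 M reads in 4-cell embryos, with no overlap. At the inferred depth, counting alone gives a relative SD of 23.2% to 31.3% without pyruvate and 15.3% to 19.2% in 4-cell embryos at 1 CPM (counts scaled to a common library total, the deposited unit). Libraries resembled each other less without pyruvate (Pearson's r across genes 0.926 to 0.957) than in 4-cell embryos (0.963 to 0.975).

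More genes were detected without pyruvate: 16307, 16696, 17418 and 17173 genes lay above 1 CPM, against 14410, 14431, 14439 and 14311 in 4-cell embryos. Standard 2-cell embryos at 52 h had 16144, 15982 and 16017, also above the 4-cell libraries. All 4 libraries without pyruvate lay above all 4-cell libraries, although their inferred depth was lower (exact two-sided permutation p = 0.029, the smallest that 4 against 4 libraries allow, and 0.086 after Benjamini-Hochberg adjustment over 3 such values). Mitochondrially encoded RNA made up 9.98%, 5.06%, 10.6% and 8.01% of all values without pyruvate, against 5.09%, 4.40%, 3.57% and 4.44% in 4-cell embryos. Library 2 without pyruvate fell within the 4-cell range and the other 3 lay above it (exact permutation p = 0.057, adjusted 0.086). The 100 highest genes held 25.9% ± 3.95 of all values without pyruvate and 21.3% ± 0.338 in 4-cell embryos (SD, n = 4 each, exact permutation p = 0.14).

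**Figure D1:**
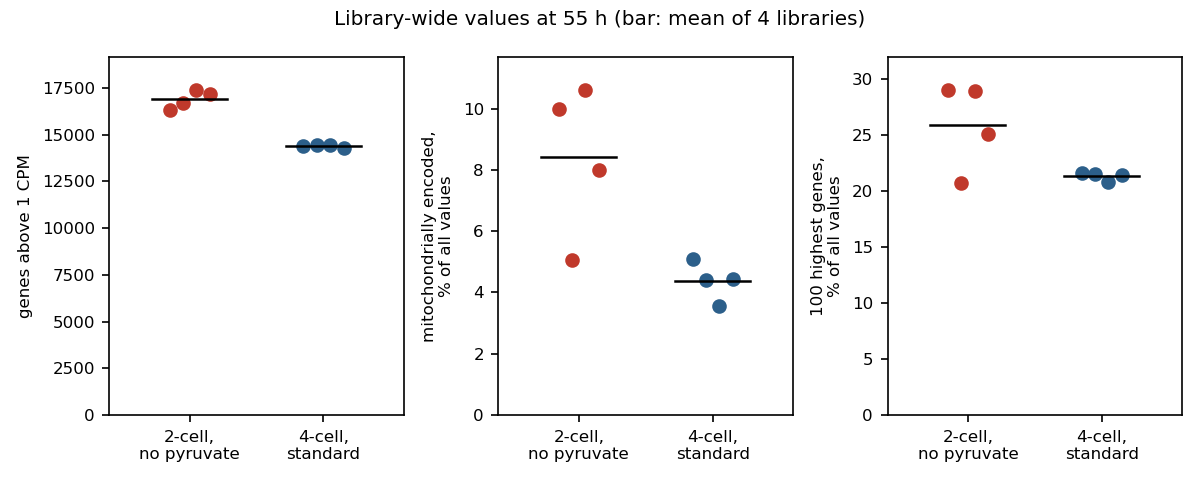
Genes above 1 CPM, mitochondrially encoded share (%) and share of the 100 highest genes (%) in each library, with 2-cell embryos without pyruvate on the left and 4-cell embryos in standard medium on the right; bars are means of 4 libraries. Detected genes separate the groups, at 16307 or more against 14439 or fewer, and the mitochondrial share of library 2 without pyruvate, 5.06%, lies among the 4-cell values.

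Of 20737 genes tested, 11854 (57.2%) were called: 7815 (37.7%) were higher and 4039 (19.5%) were lower in 2-cell embryos without pyruvate than in 4-cell embryos, at a Benjamini-Hochberg adjusted p below 0.05 in limma. Groups did not overlap for 36.8% of the genes tested, with every library higher for 24.1% and every library lower for 12.7%. The median log2 change over all genes was 0.27. It moved to 0.08 with median-ratio scaling, -0.06 with quantile scaling and -0.07 with the trend with transcript length removed. The share of called genes that were higher was 65.9% here and 52.7%, 46.7% and 46.2% under these 3 scalings, so the balance between higher and lower genes depends on the scaling. Each log2 change refers to log2(CPM + 1), so that changes of low genes come out too small.

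By gene type, 43.0% of 1232 lincRNAs, which are long noncoding RNAs, were higher and 7.31% lower, against 38.3% and 20.9% of 14853 protein-coding genes. Of 2088 processed pseudogenes, copies of mature RNAs in the genome, 22.8% were higher and 29.2% lower. Transcripts of higher genes were longer, with a median of 2946 bases, against 2234.5 bases for lower genes and 2564 bases for genes not called. Calls also went with level. Of genes with a 4-cell mean up to 1 CPM, 49.6% were higher and 0.958% lower, against 12.3% and 58.4% of genes over 100 CPM. These classes rest on the 4-cell values, which also enter the comparison. The lists below are set beside all genes, not genes of like level. The shares lower for ribosome biogenesis (51.0%), nuclear respiratory chain (57.9%) and spliceosome (62.8%) genes lie near that of genes over 100 CPM.

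Transcripts of the 2-cell burst had the largest median of all lists. Of 53 members tested of 54 listed, 42 rose, 7 fell and 4 did not pass, with a median log2 change of 2.53 against 0.27 over all genes. Pramef25, at chr4:143948580-143951016 (GRCm38, as all positions here), belongs to the PRAME family and had 89.6, 169, 285.5 and 265 CPM in 2-cell embryos without pyruvate, against 0.611, 0.671, 0 and 0.918 CPM in 4-cell embryos. The groups were far apart in every library (log2 change 6.94, SE 0.31, adjusted p = 6.6e-19). Duxf3, at chr10:58229979-58232675, belongs to the Dux family of homeobox factors that switch on 2-cell genes in the mouse, and had 52.7, 23.3, 128.5 and 87.4 CPM without pyruvate, against 0.779, 0, 0 and 0.258 CPM in 4-cell embryos. It was lowest in library 2 and highest in library 3 without pyruvate, and near 0 in every 4-cell library (log2 change 5.67, SE 0.36, adjusted p = 5.8e-15).

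Zscan4d encodes a zinc finger protein with a role in telomere maintenance in mouse embryonic stem cells. It had 79.8, 121, 194 and 202 CPM without pyruvate, against 22.1, 12.3, 19.6 and 17.3 CPM in 4-cell embryos, with no overlap (log2 change 2.93, SE 0.24, adjusted p = 1.6e-12). Usp17lc, one of a family of deubiquitinases, had 65.3, 107, 105 and 114 CPM without pyruvate, against 2.5, 1.36, 0.821 and 1.45 CPM in 4-cell embryos (log2 change 5.29, SE 0.26, adjusted p = 4.6e-18). Gm4340, a multicopy gene used as a 2-cell marker, showed 122, 118, 315 and 249 CPM without pyruvate, against 1.67, 2.77, 0.937 and 1.8 CPM in 4-cell embryos. Copies of these families are nearly identical, so how reads were shared among them is uncertain and the family rather than the copy is measured. The 7 members that fell were Eif1a, Eif1ad, Pramel6, Dppa2, Dppa4, Nr5a2 and Timd2, the most abundant member. Dppa2, a chromatin factor of early embryos, had 239.9, 329, 175 and 234 CPM without pyruvate, against 865, 839, 859 and 1000.0 CPM in 4-cell embryos, and Timd2 averaged 3251 ± 406 CPM without pyruvate and 6909 ± 664 CPM in 4-cell embryos (SD, n = 4 each). The summed level of the list was 9791, 10995, 10999 and 11632 CPM without pyruvate, against 11478, 10262, 12311 and 12306 CPM in 4-cell embryos, so the sums overlapped although most members rose.

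Promoters of burst genes are shown because 5 of the 32 with an entry hold TGAT and AATC with 2 bases of any kind between them, part of the site known for mouse Dux, in the 250 bases before the start, against 0.503% of the promoters of 27025 genes. Both strands were searched. The letters were picked from 12 letter strings after the values were known, and 4 of the 5 genes are Zscan4 copies, of which Zscan4c and Zscan4d share a run of 55 bases. The longer form, TGATT and AATCA with 1 base between, which contains these letters, was in none of the 32 windows and in 0.037% of all. Capitals mark the match. Zscan4c lies in the window chr7:11005495-11005744, plus strand, Zscan4d in chr7:11166149-11166398, minus strand and Duxf3 in chr10:58233090-58233339, minus strand (RefSeq, GRCm38.p6). The RefSeq start of Duxf3 lies upstream of the gene bounds given above, which come from GENCODE.
Zscan4c: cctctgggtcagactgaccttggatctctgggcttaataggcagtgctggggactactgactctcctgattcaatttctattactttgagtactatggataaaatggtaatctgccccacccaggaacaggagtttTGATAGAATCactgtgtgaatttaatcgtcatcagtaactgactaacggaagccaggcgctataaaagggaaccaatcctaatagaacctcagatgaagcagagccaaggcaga
Zscan4d: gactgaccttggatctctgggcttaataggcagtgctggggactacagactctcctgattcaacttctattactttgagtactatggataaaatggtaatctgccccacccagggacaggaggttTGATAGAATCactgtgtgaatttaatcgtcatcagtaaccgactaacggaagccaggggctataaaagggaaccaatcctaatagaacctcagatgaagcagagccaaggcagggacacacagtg
Duxf3: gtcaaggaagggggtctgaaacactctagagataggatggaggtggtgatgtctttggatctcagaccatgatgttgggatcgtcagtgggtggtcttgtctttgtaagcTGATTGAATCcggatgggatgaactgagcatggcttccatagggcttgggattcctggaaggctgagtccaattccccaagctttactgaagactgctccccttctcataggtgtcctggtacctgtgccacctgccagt
The match begins 114 bases before the start in Zscan4c, 125 in Zscan4d and 140 in Duxf3. Zscan4c itself had 32.6, 24.4, 47.6 and 62.4 CPM without pyruvate, against 2.17, 2.2, 2.52 and 1.16 CPM in 4-cell embryos, higher in every library without pyruvate.

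RNA inherited from the oocyte was also higher in the undivided embryos. Of 52 members tested of 54 listed, 45 rose, 1 fell (Khdc3) and 6 did not pass, with a median log2 change of 1.61. Summed over the list, the level was 9489, 11205, 14473 and 12917 CPM without pyruvate, against 3477, 3673, 3324 and 3320 CPM in 4-cell embryos. The sums without pyruvate span those of standard 2-cell embryos at 52 h (10937 to 11239 CPM) and lie below those of 2-cell embryos without pyruvate at 52 h (48246 to 52664 CPM). Smart-seq2 primes at the poly(A) tail, so a change of tail and a change of amount cannot be told apart.

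Tcl1b1, an oocyte transcript of the Tcl1 family, had 651, 569, 1099 and 796 CPM in 2-cell embryos without pyruvate, against 21.1, 14.6, 25.8 and 27.3 CPM in 4-cell embryos (log2 change 5.06, SE 0.22, adjusted p = 2.1e-19). Tcl1b2, its neighbour in the family, showed the same order, with 247, 381, 624 and 528 CPM without pyruvate, against 21.5, 29.1, 20.1 and 20.4 CPM in 4-cell embryos. Figla, an oocyte factor that switches on the zona pellucida genes, had 51.4, 15.01, 68.8 and 44.95 CPM without pyruvate, against 0, 1.49, 0 and 0 CPM in 4-cell embryos. It differed from the stored transcripts in course: its mean was 3.52 ± 0.913 CPM in 2-cell embryos without pyruvate at 52 h (SD, n = 4) and at most 0.422 CPM in any standard 2-cell group. Oosp1, an oocyte-secreted protein, and Wee2, the oocyte kinase that holds CDK1 inactive, had log2 changes of 4.00 and 3.53.

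Of 27 genes of the machinery that removes maternal RNA, 15 rose, 5 fell and 7 did not pass (median 0.69). The split was 13 higher and 7 lower under median-ratio scaling (median 0.38), and 10 higher and 9 lower with the length trend removed (median 0.18). Btg4, the adaptor that brings the CCR4-NOT deadenylase to maternal RNA, had 272, 256, 358 and 406 CPM without pyruvate, against 49.98, 92.7, 60.99 and 60.99 CPM in 4-cell embryos (log2 change 2.28, SE 0.15, adjusted p = 5.4e-15). Cnot6l, a catalytic deadenylase subunit, had 74.8, 34.5, 72.95 and 59.8 CPM without pyruvate, against 11.4, 9.86, 10.1 and 12.8 CPM in 4-cell embryos (log2 change 2.30, SE 0.17, adjusted p = 2.7e-13), and Pan2, of another deadenylase, had 75.01, 60.1, 128 and 90.3 CPM without pyruvate, against 24.6, 20.03, 27.96 and 17.8 CPM in 4-cell embryos. All 3 separated the groups. Btg4 is itself stored in the oocyte, and it averaged 323 ± 70.95 CPM without pyruvate, against 259.8 ± 21.99 CPM in standard 2-cell embryos at 52 h (SD, n = 4 and 3).

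**Figure D2:**
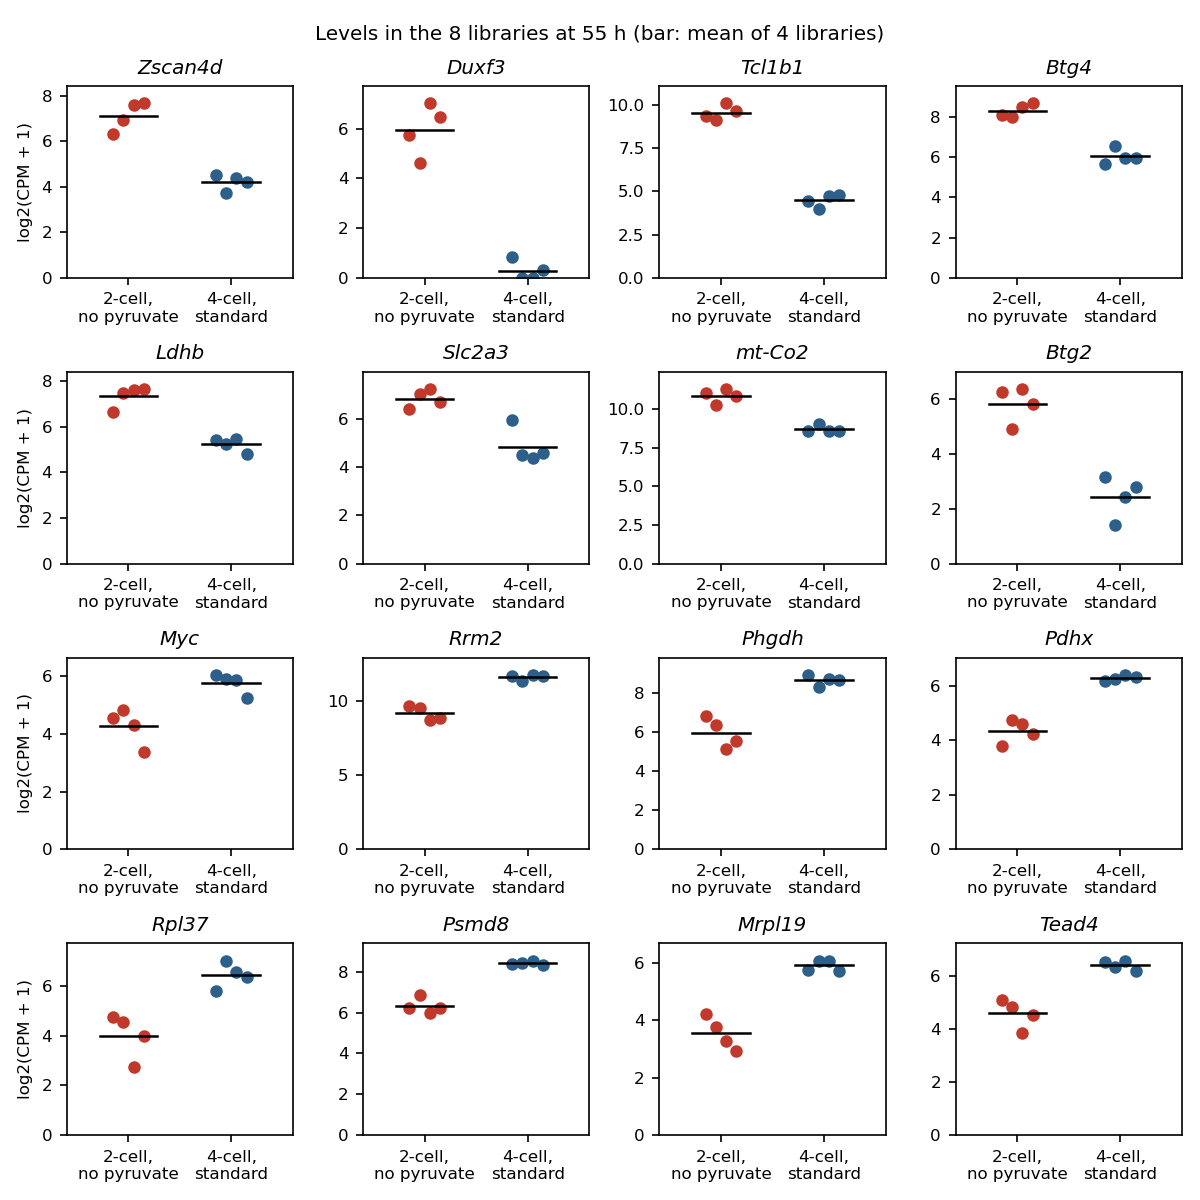
Level of 16 genes on the log2(CPM + 1) scale in each of the 8 libraries, 2-cell embryos without pyruvate on the left and 4-cell embryos on the right, with bars at the group means. The 8 genes of the upper rows are higher without pyruvate and the 8 of the lower rows are lower, with no overlap in any panel; Duxf3 spans 23.3 to 128.5 CPM without pyruvate.

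The translation machinery was lower in the undivided embryos. Among 79 genes of cytosolic ribosomal proteins, 67 fell, 1 rose (Rpl41) and 11 did not pass, with a median log2 change of -1.02. Rpl37, of the large subunit, had 26.4, 22.7, 5.63 and 14.9 CPM in 2-cell embryos without pyruvate, against 54.7, 130.0, 94.3 and 82.8 CPM in 4-cell embryos (log2 change -2.43, SE 0.31, adjusted p = 3.8e-08). Rps23, of the small subunit, had 40.4, 39.98, 13.5 and 28.8 CPM without pyruvate, against 88.3, 159.9, 152 and 120.1 CPM in 4-cell embryos (log2 change -2.12, SE 0.27, adjusted p = 2.7e-08). Both were lowest in library 3 without pyruvate and did not overlap between the groups. Summed over the list, the level was 8018, 9045, 5848 and 7608 CPM without pyruvate and 9144, 15162, 13326 and 11378 CPM in 4-cell embryos, so that 4-cell library 1 came within 99 CPM of library 2 without pyruvate.

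Factors that build ribosomes went the same way with smaller changes: 26 of 51 fell, 4 rose and 21 did not pass (median -0.49). Nhp2, a protein of the complexes that modify ribosomal RNA, had 319, 364, 175.5 and 284 CPM without pyruvate, against 819, 1177, 1254 and 1044 CPM in 4-cell embryos (log2 change -1.94, SE 0.20, adjusted p = 4.3e-10). Bop1, needed to process the RNA of the large subunit, had 48.4, 35.5, 11.02 and 28.2 CPM without pyruvate, against 121, 81.2, 112 and 93.6 CPM in 4-cell embryos. Mrto4, an assembly factor of the large subunit, fell by 1.51 on the log2 scale. Of 24 aminoacyl-tRNA synthetases and their cofactors, 13 fell, 2 rose and 9 did not pass. Rars, which charges arginine tRNA, had 225.5, 279, 126.5 and 164.5 CPM without pyruvate, against 569.6, 476, 501 and 489.5 CPM in 4-cell embryos, and the mitochondrial Fars2 rose, with 12.8, 29.1, 25.8 and 32.3 CPM without pyruvate, against 5.68, 11.8, 9.99 and 11.1 CPM in 4-cell embryos. No 4-cell library overlapped those without pyruvate for Nhp2, Bop1 or Rars.

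Protein degradation and splicing genes fell too. Of 32 proteasome subunits, 28 fell, 1 rose (Psmd5) and 3 did not pass, with a median of -0.97. Psmd8, of the regulatory particle, had 72.8, 114, 63.05 and 73.98 CPM without pyruvate, against 336, 349, 372 and 320.3 CPM in 4-cell embryos (log2 change -2.11, SE 0.15, adjusted p = 5.5e-14). Of 43 spliceosome core genes, 27 fell, 4 rose and 12 did not pass (median -0.55), and Snrpa1, of the U2 particle, had 217, 174.5, 69.2 and 124 CPM without pyruvate, against 526, 805, 795 and 753 CPM in 4-cell embryos (log2 change -2.39, SE 0.24, adjusted p = 4.0e-10). In the catalytic core of the proteasome, Psmb6 and Psma4 fell by 1.78 and 1.56 on the log2 scale. The lowest library was library 3 without pyruvate for Snrpa1 and for Psmd8.

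Promoters of ribosomal protein genes held CCGGAAG, letters within the sites of ETS factors, in 18 of 58 cases with an entry (31.0%), against 7.05% of the promoters of all genes, searched on both strands. Other lists were alike, with 37.1% for spliceosome, 30.8% for proteasome and 29.2% for DNA replication genes. The share was 23.8% for the machinery that removes maternal RNA, where most called members rose. This string, too, was among the 12 looked at after the values were known. The promoter of Rpl37 is shown as an example, since that gene fell most of the list (chr15:5116363-5116612, plus strand).
Rpl37: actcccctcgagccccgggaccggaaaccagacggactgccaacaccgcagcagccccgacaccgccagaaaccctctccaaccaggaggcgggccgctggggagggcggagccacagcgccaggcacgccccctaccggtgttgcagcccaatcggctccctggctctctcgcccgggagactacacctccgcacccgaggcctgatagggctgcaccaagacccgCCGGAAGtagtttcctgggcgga
The match begins 23 bases before the start. Rpl41, the member that rose, with 1206, 1426, 1004 and 1264 CPM without pyruvate, against 534, 922, 804 and 668 CPM in 4-cell embryos, also has a match, and Rps26, with a match, did not pass.

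Mitochondrial genes split by genome. Of 15 genes encoded in mitochondrial DNA, 13 rose, none fell and 2 did not pass (mt-Cytb and mt-Nd6), with a median log2 change of 1.72. Their summed level was 50089 to 105050 CPM without pyruvate and 35464 to 50476 CPM in 4-cell embryos. In standard 2-cell embryos at 52 h it was 64617 to 98090 CPM, within the range without pyruvate. mt-Rnr1, the RNA of the small mitochondrial ribosomal subunit, had 1293, 524, 1179 and 892 CPM in 2-cell embryos without pyruvate, against 78.7, 123, 94.7 and 99.7 CPM in 4-cell embryos (log2 change 3.22, SE 0.23, adjusted p = 1.1e-13). mt-Co2, a subunit of cytochrome c oxidase, had 2082, 1216, 2485 and 1791 CPM without pyruvate, against 382, 531, 375 and 383 CPM in 4-cell embryos (log2 change 2.15, SE 0.19, adjusted p = 1.3e-11). Library 2 was the lowest without pyruvate in both and still above every 4-cell library. mt-Co3, of the same oxidase, had a log2 change of 2.13. mt-Cytb, the only mitochondrially encoded subunit of complex III, ranged over 14080 to 30890 CPM without pyruvate, against 19950 to 29920 CPM in 4-cell embryos, and its groups overlapped.

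Among nuclear genes of the respiratory chain, 44 of 76 fell, 5 rose and 27 did not pass (median -0.59). Ndufa5 and Ndufa8, subunits of complex I, fell by 2.30 and 2.08 on the log2 scale. Ndufa8 had 7.11, 15.2, 11.3 and 6.45 CPM without pyruvate, against 31.6, 46.2, 49.3 and 48.6 CPM in 4-cell embryos (log2 change -2.08, SE 0.24, adjusted p = 5.3e-09). Sdhc, a membrane subunit of complex II, went the other way, with 10.9, 17.5, 12.5 and 8.66 CPM without pyruvate, against 2.89, 3.31, 3.52 and 3.71 CPM in 4-cell embryos (log2 change 1.58, SE 0.20, adjusted p = 3.9e-08).

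Of 78 mitochondrial ribosomal proteins, 59 fell, 4 rose and 15 did not pass (median -0.75). Mrps31, of the small subunit, had 2.03, 9.81, 5.19 and 3.01 CPM without pyruvate, against 35.9, 54.8, 54.9 and 53.5 CPM in 4-cell embryos (log2 change -3.23, SE 0.27, adjusted p = 3.7e-12). Mrpl19, of the large subunit, had 17.6, 12.7, 8.81 and 6.63 CPM without pyruvate, against 53.5, 66.6, 66.3 and 52.2 CPM in 4-cell embryos (log2 change -2.36, SE 0.24, adjusted p = 3.1e-10). Neither overlapped between the groups.

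Genes that handle pyruvate, lactate and glucose, with the MYC family, were a list of 14, of which 7 rose, 3 fell and 4 did not pass (median 0.37). With the length trend removed, the balance of higher minus lower members was -1. Both subunits of the mitochondrial pyruvate carrier fell: Mpc1 had 336, 376, 333 and 357.5 CPM in 2-cell embryos without pyruvate, against 602, 841, 906 and 774 CPM in 4-cell embryos (log2 change -1.14, SE 0.15, adjusted p = 9.9e-08), and Mpc2 had 208, 209.6, 164 and 197 CPM without pyruvate, against 299, 498, 429.5 and 331 CPM in 4-cell embryos (log2 change -0.97, SE 0.17, adjusted p = 1.2e-05). Neither carrier gene overlapped between the groups.

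Both lactate dehydrogenase genes, whose products interconvert pyruvate and lactate, rose. Ldhb had 99.1, 174.5, 194 and 198 CPM without pyruvate, against 41.2, 36.2, 42.8 and 26.7 CPM in 4-cell embryos (log2 change 2.12, SE 0.19, adjusted p = 3.2e-11), with every library apart. Ldha had 41.3, 21.03, 84.2 and 48.8 CPM without pyruvate, against 27.3, 19.7, 12.99 and 11.4 CPM in 4-cell embryos, and library 2 without pyruvate overlapped the 4-cell range (log2 change 1.32, SE 0.27, adjusted p = 1.1e-04). Slc2a3, a glucose transporter, had 84.2, 131, 152 and 106 CPM without pyruvate, against 60.98, 22.1, 20.1 and 22.9 CPM in 4-cell embryos (log2 change 2.00, SE 0.26, adjusted p = 5.2e-08). The other glucose transporter listed, Slc2a1, was near 1 CPM, at 0.107 to 3.25 CPM without pyruvate, against 0 to 1.53 CPM in 4-cell embryos (adjusted p = 0.043), a call lost under median-ratio and quantile scaling (adjusted p = 0.12 and 0.72). For Slc2a3 the lowest library without pyruvate still lay above 4-cell library 1, which stood apart from the other 4-cell libraries.

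The monocarboxylate transporter Slc16a1 did not pass, at 33.2 to 77.7 CPM without pyruvate, against 48.5 to 58.99 CPM in 4-cell embryos (adjusted p = 0.34), but was lower under median-ratio scaling (log2 change -0.54, adjusted p = 0.014). Slc16a3 lay below 2 CPM in all 8 libraries and Slc16a7 was listed at 0 in all of them. Pdk1, a kinase that inhibits pyruvate dehydrogenase, had 15.5 to 34.9 CPM without pyruvate, against 13.01 to 27.8 CPM in 4-cell embryos (adjusted p = 0.35).

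Myc, the transcription factor, had 22.6, 27.7, 18.8 and 9.39 CPM in 2-cell embryos without pyruvate, against 65.2, 59.1, 57.6 and 37.2 CPM in 4-cell embryos (log2 change -1.50, SE 0.27, adjusted p = 1.7e-05). Every library without pyruvate was below every 4-cell library. Its partner Max rose slightly, with 49.99, 44.96, 49.5 and 51.5 CPM without pyruvate, against 28.02, 41.6, 39.7 and 29.4 CPM in 4-cell embryos (log2 change 0.51, SE 0.16, adjusted p = 0.0057). Mycn and Mycl were low, at 1.83 to 10.97 CPM without pyruvate, against 0.704 to 4.62 CPM in 4-cell embryos for Mycn and 3.59 to 9.21 CPM without pyruvate, against 1.93 to 4.19 CPM in 4-cell embryos for Mycl. Both passed the test as higher, with overlapping groups (adjusted p = 0.007 and 0.043). The calls of Max and Mycl were lost under median-ratio scaling (adjusted p = 0.26 and 0.23) and those of Max, Mycn and Mycl under quantile scaling (adjusted p = 0.056, 0.24 and 0.96).

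Downstream in pyruvate use, the list of pyruvate dehydrogenase and the tricarboxylic acid cycle was divided, with 10 rises, 12 falls and 13 not passing among 35. Falls were further ahead under 3 alternatives: 6 rises and 16 falls under median-ratio scaling, 4 and 17 under quantile scaling, and 5 and 17 with the length trend removed. Pdhx, which anchors a subunit within the pyruvate dehydrogenase complex, had 12.7, 25.4, 23.2 and 17.5 CPM without pyruvate, against 71.4, 74.1, 83.00 and 79.5 CPM in 4-cell embryos (log2 change -1.96, SE 0.17, adjusted p = 9.7e-12). Idh2, mitochondrial isocitrate dehydrogenase, had 4.74, 12.2, 6.76 and 5.1 CPM without pyruvate, against 24.3, 29.8, 26.9 and 34.98 CPM in 4-cell embryos (log2 change -1.94, SE 0.22, adjusted p = 4.0e-09). Of 23 genes of the glycolytic pathway, 13 were called higher (56.5%, against 37.7% of all genes tested), 2 lower (8.70%, against 19.5%) and 8 neither way (median 0.73). It was 10 higher and 5 lower under median-ratio and quantile scaling and with the length trend removed (medians 0.46, 0.26 and 0.41). Among the 12 with a mean of at least 10 CPM, 5 were higher and 2 lower (median 0.23). Aldoa, the most common aldolase, was one of the falls, with 25.4, 21.6, 19.5 and 13.5 CPM without pyruvate, against 85.9, 86.99, 102 and 71.5 CPM in 4-cell embryos (log2 change -2.08, SE 0.22, adjusted p = 1.2e-09). Pkm, pyruvate kinase, rose with 94.7, 115.5, 129.9 and 97.7 CPM without pyruvate, against 72.98, 76.7, 53.4 and 53.7 CPM in 4-cell embryos (log2 change 0.77, SE 0.22, adjusted p = 0.0037).

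Enzymes that make nucleotides were lower, with 19 falls, 3 rises and 6 not passing among 28, and a median of -0.95. Rrm2, the regulated subunit of ribonucleotide reductase, had 816, 755, 436 and 469 CPM in 2-cell embryos without pyruvate, against 3329, 2694, 3534 and 3286 CPM in 4-cell embryos (log2 change -2.42, SE 0.16, adjusted p = 1.8e-14). Umps, which makes uridine monophosphate, had 57.5, 108, 43.05 and 49.9 CPM without pyruvate, against 316, 199.6, 224 and 231 CPM in 4-cell embryos (log2 change -1.97, SE 0.22, adjusted p = 1.9e-09). Gmps, which makes guanosine monophosphate, had 102, 115, 86.7 and 83.4 CPM without pyruvate, against 467, 305, 322 and 379 CPM in 4-cell embryos (log2 change -1.91, SE 0.17, adjusted p = 2.2e-11). All 3 separated the groups completely.

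Serine and one-carbon genes showed 10 falls, 2 rises and 6 not passing among 18 tested of 22 listed (median -0.77). Phgdh, the first enzyme of serine synthesis, had 113, 81.1, 33.9 and 46.2 CPM without pyruvate, against 482, 317, 419 and 397 CPM in 4-cell embryos (log2 change -2.68, SE 0.24, adjusted p = 1.4e-11). Mat2a, which makes S-adenosylmethionine, had 233.5, 372.5, 247 and 297 CPM without pyruvate, against 1070.0, 571, 815 and 869 CPM in 4-cell embryos (log2 change -1.52, SE 0.22, adjusted p = 4.9e-07). Library 3 was the lowest without pyruvate for Phgdh, and library 1 for Mat2a.

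The letters CACGTG, the E-box bound by MYC with MAX, read the same on both strands. They were in the promoters of 6 of 24 nucleotide synthesis genes with an entry, 3 of 45 ribosome biogenesis genes and 6.05% of all 27025 genes. Genes called higher held them in 8.34% and genes called lower in 8.14%. This string was among the 12 looked at, and nucleotide synthesis had the highest share of the lists (25.0%). The share was 18.8% for cholesterol synthesis and for aminoacyl-tRNA synthetases, 18.2% for p53 targets and 17.4% for adhesion and polarity genes. Of these other lists, only the synthetases had more falls than rises. The promoters of Tyms, which makes thymidylate (chr5:30073626-30073875, minus strand), and Impdh2, which commits to guanine nucleotides (chr9:108560186-108560435, plus strand), are shown with the E-box in capitals.
Tyms: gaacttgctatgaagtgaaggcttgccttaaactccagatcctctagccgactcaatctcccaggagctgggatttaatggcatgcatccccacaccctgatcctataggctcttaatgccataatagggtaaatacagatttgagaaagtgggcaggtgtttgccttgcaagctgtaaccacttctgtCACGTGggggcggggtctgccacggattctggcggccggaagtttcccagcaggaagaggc
Impdh2: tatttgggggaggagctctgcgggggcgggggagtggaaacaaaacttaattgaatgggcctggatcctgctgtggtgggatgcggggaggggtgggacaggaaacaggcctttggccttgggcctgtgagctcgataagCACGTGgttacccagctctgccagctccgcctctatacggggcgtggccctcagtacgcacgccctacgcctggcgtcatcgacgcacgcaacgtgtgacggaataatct
The box begins 61 bases before the start in Tyms and 110 in Impdh2. Tyms had 22.6, 30.6, 31.8 and 24.7 CPM without pyruvate, against 77.5, 104, 113 and 84.3 CPM in 4-cell embryos, and Impdh2 had 137, 153, 70.1 and 93.8 CPM without pyruvate, against 282, 258, 278.5 and 268.5 CPM in 4-cell embryos, both lower in every library without pyruvate. Of the 6 genes with an E-box, Atic rose, Dtymk did not pass and the other 4 fell.

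Genes of DNA replication showed 26 falls, 14 rises and 19 not passing among 59 (median -0.36), and 33 falls and 11 rises under median-ratio scaling (median -0.67). All 4 GINS genes, whose products form part of the replicative helicase, were among the falls, led by Gins1 with a log2 change of -1.72. Ccnd2, a cyclin of the G1 phase, was the largest rise, with 12.6, 16.4, 20.5 and 28.7 CPM without pyruvate, against 0.198, 2.86, 1.51 and 1.17 CPM in 4-cell embryos (log2 change 3.14, SE 0.36, adjusted p = 4.1e-09). E2f2, a factor of the G1/S transition, had 13.2, 9.65, 10.97 and 13.9 CPM without pyruvate, against 0.997, 6.78, 1.77 and 2.02 CPM in 4-cell embryos (log2 change 1.93, SE 0.27, adjusted p = 2.2e-07). Neither cyclin nor factor overlapped between the groups.

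Among 48 genes of G2 and mitosis, 20 fell, 10 rose and 18 did not pass (median -0.17). The rises numbered 2 against 29 falls under median-ratio scaling (median -0.48), and 2 against 31 with the length trend removed (median -0.57). Plk1, a mitotic kinase, had 359.5, 199, 116 and 179 CPM without pyruvate, against 630.4, 395, 498 and 467 CPM in 4-cell embryos (log2 change -1.32, SE 0.28, adjusted p = 1.6e-04). Cdc20, the activator of the anaphase-promoting complex, had 323, 437, 224 and 241 CPM without pyruvate, against 853, 554, 662 and 649.5 CPM in 4-cell embryos (log2 change -1.18, SE 0.22, adjusted p = 2.8e-05). Cenpf, a kinetochore protein, rose, with 201, 194, 194 and 165 CPM without pyruvate, against 86.97, 62.5, 66.3 and 79.4 CPM in 4-cell embryos (log2 change 1.35, SE 0.12, adjusted p = 1.3e-11). None of the 3 overlapped, and library 1 was the highest without pyruvate for Plk1 and library 2 for Cdc20.

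Targets of p53 and of DNA damage signalling had 13 rises, 4 falls and 9 not passing among 26 tested of 28 listed (median 0.51). Of all genes tested, 37.7% were higher and 19.5% lower. The list had 9 rises and 8 falls under median-ratio scaling (median 0.20), and 10 and 5 under quantile scaling (median 0.26). With the length trend removed the balance of higher minus lower members was -2. At 52 h, against standard 2-cell embryos, 7 members were higher and 11 lower without pyruvate. Btg2, an antiproliferative gene, had 75.3, 28.8, 81.1 and 54.96 CPM in 2-cell embryos without pyruvate, against 7.86, 1.66, 4.33 and 5.84 CPM in 4-cell embryos (log2 change 3.39, SE 0.28, adjusted p = 2.3e-12). Pmaip1, which encodes the cell death protein Noxa, had 45.3, 61.1, 85.5 and 85.2 CPM without pyruvate, against 8.71, 4.64, 7.07 and 6.74 CPM in 4-cell embryos (log2 change 3.15, SE 0.21, adjusted p = 1.7e-14). Ccng1, a cyclin induced by p53, had 8.67, 18.3, 25.9 and 34.6 CPM without pyruvate, against 1.59, 4.29, 2.96 and 7.07 CPM in 4-cell embryos (log2 change 2.17, SE 0.31, adjusted p = 3.5e-07). Trp53 itself did not pass, at 31.9 to 63.2 CPM without pyruvate, against 42.8 to 60.5 CPM in 4-cell embryos.

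The list of amino acid deprivation and the integrated stress response had 11 rises, 8 falls and 14 not passing among 33. These shares, 33.3% higher and 24.2% lower, lie near the 37.7% and 19.5% of all genes tested. Its balance turned to -2 among genes of at least 10 CPM and to -1 with the length trend removed. Atf3, a stress-induced factor, had 15.9, 6.43, 39.1 and 6.45 CPM without pyruvate, against 0.0369, 0, 0 and 0 CPM in 4-cell embryos (log2 change 3.79, SE 0.39, adjusted p = 4.7e-10), and library 3 was far above the others. Ddit3, known as CHOP, had 17.3, 20.00, 24.1 and 21.03 CPM without pyruvate, against 5.3, 3.18, 5.45 and 2.07 CPM in 4-cell embryos (log2 change 2.17, SE 0.21, adjusted p = 8.5e-11). The list's largest fall was Phgdh.

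Of 29 genes of the unfolded protein and heat shock responses, 10 rose (34.5%, against 37.7% of all genes tested), 8 fell (27.6%, against 19.5%) and 11 did not pass, with a balance of -2 under median-ratio scaling and -4 with the length trend removed. Herpud1, a stress gene of the endoplasmic reticulum, had 8.67, 14.8, 50.2 and 50.4 CPM without pyruvate, against 0.738, 0, 1.91 and 1.24 CPM in 4-cell embryos (log2 change 3.78, SE 0.38, adjusted p = 2.3e-10). Dnaja1, a cytosolic co-chaperone, fell, with 135, 167, 107 and 143 CPM without pyruvate, against 582, 667, 648 and 684 CPM in 4-cell embryos (log2 change -2.23, SE 0.14, adjusted p = 6.8e-15). Redox genes were split, with 11 rises (32.4%), 10 falls (29.4%) and 13 not passing among 34 and a median of -0.27, opposite in sign to the balance. That balance turned to -7 under median-ratio scaling, -6 under quantile scaling and -7 with the length trend removed. Hmox1, which degrades heme, had 11.7, 12.9, 41.7 and 7.74 CPM without pyruvate, against 1.77, 1.9, 1.12 and 1.48 CPM in 4-cell embryos (log2 change 2.65, SE 0.30, adjusted p = 4.7e-09), and Gpx3, a glutathione peroxidase, had 113, 135, 171 and 157 CPM without pyruvate, against 37.2, 27.1, 28.9 and 31.7 CPM in 4-cell embryos.

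Chromatin modifiers had 18 rises, 7 falls and 23 not passing among 48. These shares, 37.5% higher and 14.6% lower, lie near the 37.7% and 19.5% of all genes tested, and the balance was -8 with the length trend removed. Kmt2d, a histone methyltransferase of enhancers, had 827, 287, 752 and 511 CPM without pyruvate, against 60.8, 147, 115 and 79.1 CPM in 4-cell embryos (log2 change 2.52, SE 0.29, adjusted p = 5.0e-09). Ep300, a histone acetyltransferase, had 88.7, 79.2, 66.7 and 62.3 CPM without pyruvate, against 10.7, 20.6, 9.96 and 15.7 CPM in 4-cell embryos (log2 change 2.35, SE 0.21, adjusted p = 1.3e-11). Tet3, which oxidises methylated cytosine in the zygote, had 53.2, 46.1, 57.1 and 41.6 CPM without pyruvate, against 10.5, 15.3, 14.9 and 13.4 CPM in 4-cell embryos. All 3 were higher in every library without pyruvate.

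Lineage factors were divided, with 10 rises, 11 falls and 7 not passing among 28 tested of 31 listed, and this balance of -1 turned to 1 when library 3 without pyruvate or 4-cell library 4 was left out. The share of rises, 35.7%, lay near the 37.7% of all genes tested, and that of falls, 39.3%, lay above the 19.5% of all genes. Falls were further ahead with 7 rises and 12 falls under quantile scaling (median -0.39), and with 5 and 14 when the length trend was removed (median -0.53). Id2, a helix-loop-helix inhibitor, rose, with 15.4, 23.9, 48.1 and 33.04 CPM without pyruvate, against 0.48, 3.32, 1.08 and 1.15 CPM in 4-cell embryos (log2 change 3.64, SE 0.28, adjusted p = 4.1e-13), as did Gata3, a trophectoderm factor (5.67 to 20.5 CPM without pyruvate, against 1.48 to 3.62 CPM in 4-cell embryos; log2 change 1.84, SE 0.26, adjusted p = 2.5e-07). Tead4 fell (log2 change -1.82, SE 0.24, adjusted p = 9.2e-08). Of 27 genes of adhesion, polarity and trophectoderm structure, 16 rose, 6 fell and 5 did not pass (median 0.83). Cldn6, a tight junction protein, had 85.7, 102, 183 and 181 CPM without pyruvate, against 13.1, 10.9, 7.25 and 8.24 CPM in 4-cell embryos (log2 change 3.63, SE 0.26, adjusted p = 7.2e-14), whereas Cldn4, of the same family, was lower, at 0.0678 to 6.2 CPM without pyruvate, against 4.67 to 20.7 CPM in 4-cell embryos, with overlap (log2 change -2.30, SE 0.43, adjusted p = 2.9e-05).

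Lipid genes were mixed. In fatty acid oxidation 9 of 22 fell, 6 rose and 7 did not pass, and Acsl4, which activates fatty acids, had 105, 106, 77.3 and 57.9 CPM without pyruvate, against 391, 338, 321 and 407.5 CPM in 4-cell embryos (log2 change -2.10, SE 0.21, adjusted p = 3.9e-10). In cholesterol synthesis 8 of 22 rose (36.4%, against 37.7% of all genes tested), 3 fell (13.6%, against 19.5%) and 11 did not pass, with a balance of -2 under median-ratio scaling and with the length trend removed. Sc5d, a late enzyme of the pathway, had 44.2, 49.5, 71.3 and 73.4 CPM without pyruvate, against 10.2, 20.6, 14.1 and 7.98 CPM in 4-cell embryos (log2 change 2.14, SE 0.20, adjusted p = 3.6e-11).

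**Figure D3:**
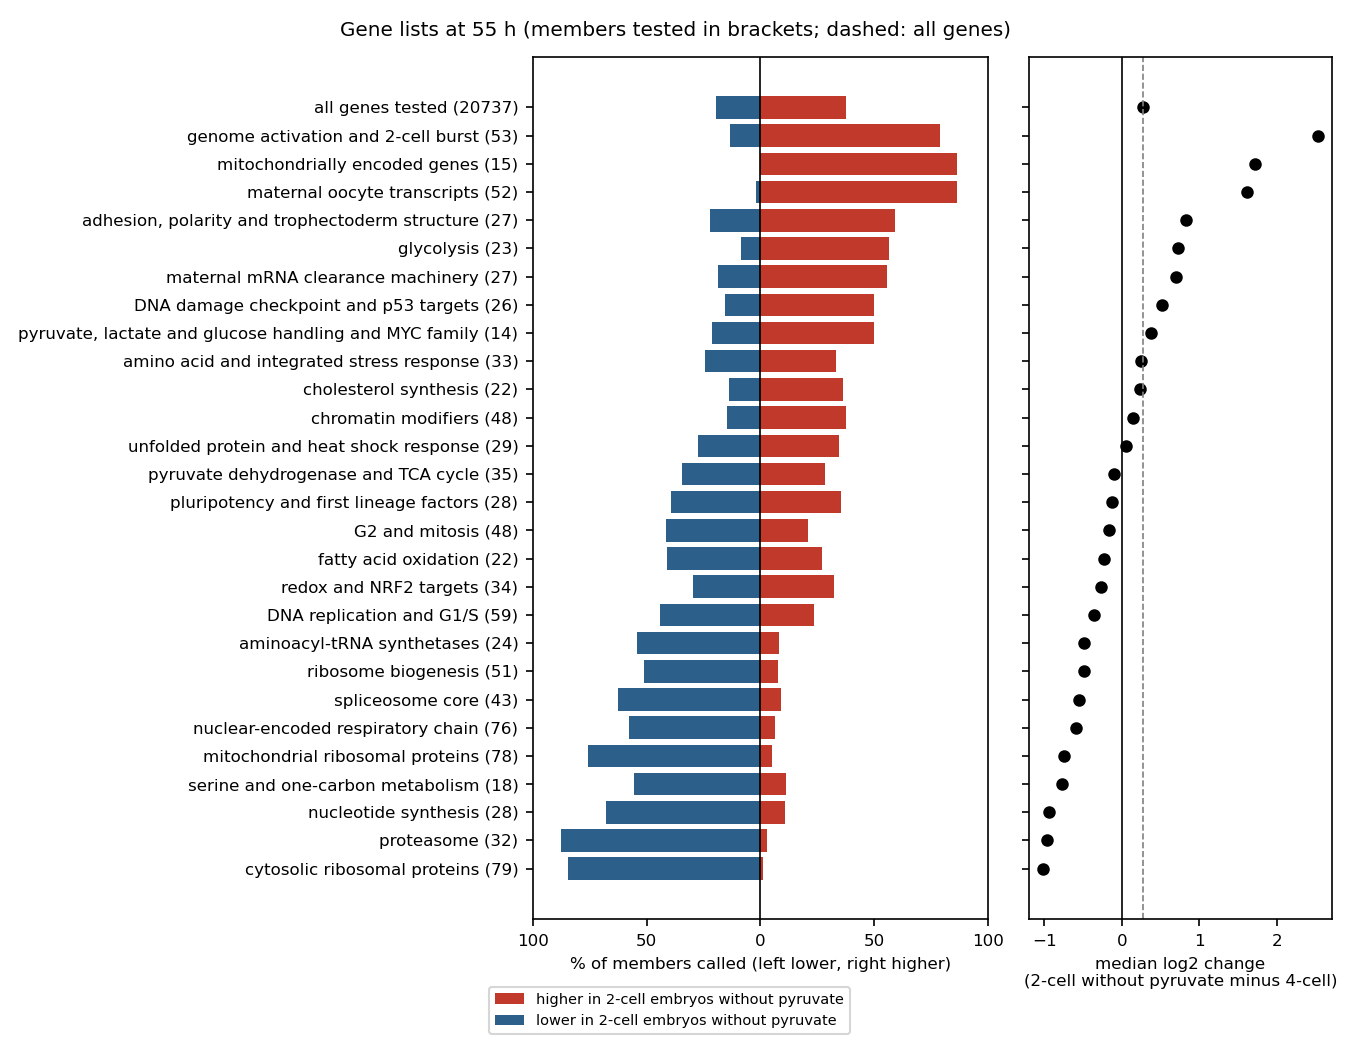
Share of the members of each gene list called higher (right) or lower (left) in 2-cell embryos without pyruvate than in 4-cell embryos (%), with the number of members tested in brackets, and the median log2 change of the list; marker lists of other cells are left out. All 20737 genes are at the top (37.7% higher, 19.5% lower, median 0.27, dashed line); burst, mitochondrially encoded and oocyte lists lie at one end and ribosomal protein and proteasome lists at the other.

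Outside the lists, the largest rises included Stard4, a carrier of cholesterol, with 43.5, 21.8, 134 and 61.4 CPM without pyruvate, against 1.14, 0, 2.31 and 3.69 CPM in 4-cell embryos (log2 change 4.49, SE 0.35, adjusted p = 8.4e-13). Klf6, a zinc finger factor, had 18.1, 19.7, 59.3 and 52.3 CPM without pyruvate, against 0.0369, 1.42, 0 and 1.48 CPM in 4-cell embryos (log2 change 4.41, SE 0.32, adjusted p = 1.8e-13). Trim60 had 57.3, 72.4, 103 and 93.9 CPM without pyruvate, against 5.07, 2.6, 0.758 and 2.16 CPM in 4-cell embryos. Library 3 was the highest without pyruvate for all 3.

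Among the largest falls, Vnn1, a pantetheinase, had 0, 1.13, 0.196 and 0.491 CPM without pyruvate, against 20.5, 29.3, 47.4 and 28.4 CPM in 4-cell embryos (log2 change -4.47, SE 0.31, adjusted p = 3.1e-14), and its mean was 207 ± 62.7 CPM in late 4-cell embryos at 62 h (SD, n = 4). Galk1, galactokinase, had 3.66, 2.95, 0.0979 and 1.72 CPM without pyruvate, against 37.9, 37.3, 39.6 and 31.8 CPM in 4-cell embryos (log2 change -3.79, SE 0.27, adjusted p = 1.3e-13). Alad, an enzyme of heme synthesis, had 4.81, 11.6, 2.06 and 7.18 CPM without pyruvate, against 57.6, 97.3, 65.6 and 69.9 CPM in 4-cell embryos (log2 change -3.47, SE 0.31, adjusted p = 1.7e-11). The 4 libraries without pyruvate were all below 12 CPM for each of these genes.

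Kyat3, an aminotransferase of the kynurenine pathway, had 6.57, 8.22, 6.74 and 0.737 CPM without pyruvate, against 71.9, 58.8, 54.9 and 52.1 CPM in 4-cell embryos (log2 change -3.44, SE 0.31, adjusted p = 2.6e-11). Phlda2, an imprinted gene that limits placental growth, had 28.9, 17.3, 26.3 and 11.1 CPM without pyruvate, against 116, 316, 197 and 165 CPM in 4-cell embryos (log2 change -3.18, SE 0.27, adjusted p = 7.3e-12). Tdgf1, the Nodal coreceptor, had 8.26, 3.86, 1.47 and 0.491 CPM without pyruvate, against 43.9, 35.9, 24.03 and 20.6 CPM in 4-cell embryos (log2 change -3.10, SE 0.39, adjusted p = 3.0e-08). No library overlapped in any of them.

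Levels without pyruvate at 55 h were then placed in the standard course from early 2-cell (34 h) to late 4-cell (62 h). Of the 7815 higher genes, 3834 (49.1%) had a mean above every standard group, against 23.3% of all genes tested. The call already placed these genes above the early 4-cell group, so the share is a description only. The other 3981 lay within the range, nearest to very late 2-cell embryos (52 h) for 1685 and to late 2-cell embryos (48 h) for 1076. Of the 4039 lower genes, 394 (9.75%) lay below every standard group, against 3.60% of all genes tested. The other 3645 lay within, nearest to late 2-cell embryos for 1460 and to very late 2-cell embryos for 1023. Both numbers depended on the definition. There were 2677 called genes above the range of the standard libraries and 2662 above the means under median-ratio scaling. Below, there were 217 and 871.

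Genes farthest above the standard course included Duxf3 and Figla. Duxf3 averaged 72.95 ± 45.3 CPM without pyruvate at 55 h and 11.1 ± 4.06 CPM without pyruvate at 52 h (SD, n = 4 each), against a highest standard mean of 11.1 ± 0.853 CPM in early 2-cell embryos at 34 h (SD, n = 3). Its spread at 55 h was wide, but the lowest library still lay above that mean. Another was Yod1, a deubiquitinase, with 299.5, 109, 411 and 303 CPM without pyruvate, against 36.3, 31.8, 40.4 and 45.7 CPM in 4-cell embryos (log2 change 2.69, SE 0.26, adjusted p = 9.8e-11). Klhl3, an adaptor of a ubiquitin ligase, had 339, 51.8, 331 and 111 CPM without pyruvate, against 16.8, 27.5, 25.1 and 15.2 CPM in 4-cell embryos (log2 change 2.90, SE 0.35, adjusted p = 1.3e-08). Its highest standard mean was 23.1 ± 9.45 CPM, in very late 2-cell embryos (SD, n = 3), and libraries 1 and 3 without pyruvate were the highest. Lipg, a lipase, had 18.3, 18.9, 53.9 and 27.5 CPM without pyruvate, against 1.37, 0, 0 and 0.751 CPM in 4-cell embryos (log2 change 4.29, SE 0.34, adjusted p = 9.9e-13).

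Genes below the course were led by Stambp, a deubiquitinase, with 2.1, 8.98, 2.94 and 5.34 CPM without pyruvate, against 40.7, 37.9, 47.3 and 46.1 CPM in 4-cell embryos (log2 change -3.06, SE 0.22, adjusted p = 1.2e-13). Pdhx and Cox6c, a subunit of cytochrome c oxidase, were among them: Cox6c had 27.2, 30.4, 12.2 and 15.7 CPM without pyruvate, against 57.1, 123.5, 101 and 71.5 CPM in 4-cell embryos (log2 change -2.02, SE 0.26, adjusted p = 5.1e-08), against a lowest standard mean of 37.9 ± 3.54 CPM in very late 2-cell embryos (SD, n = 3). Rpe, of the pentose phosphate pathway, had 20.6, 24.00, 18.7 and 13.5 CPM without pyruvate, against 46.9, 30.7, 37.6 and 38.8 CPM in 4-cell embryos.

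**Figure D4:**
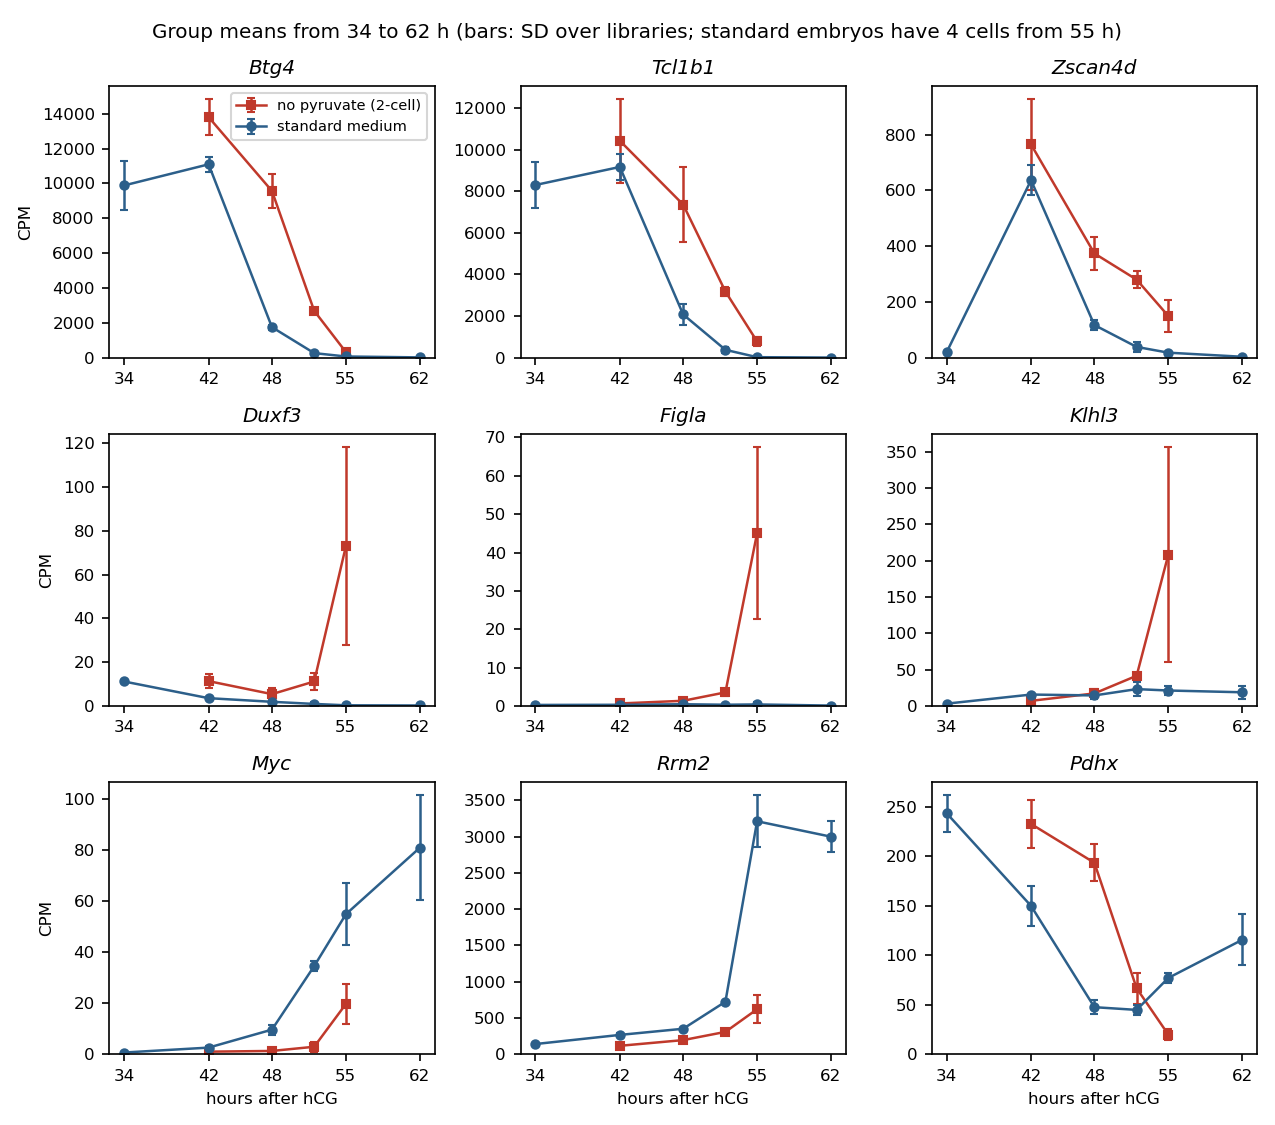
Mean level (CPM, bars are SD over 3 to 5 libraries) of 9 genes by age in hours after hCG, in 2-cell embryos without pyruvate (42 to 55 h, squares) and in standard medium (34 to 62 h, circles). At 55 h Duxf3, Figla and Klhl3 lie above every standard mean, Pdhx lies below every one, and Myc and Rrm2 lie between the standard means at 48 h and 52 h.

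The difference at 55 h was set against that at 52 h, when both media held 2-cell embryos. No library was shared, but the standard embryos had 4 cells at 55 h and 2 cells at 52 h, so a change of the difference also carries the step of the standard embryos from 2 to 4 cells. At 52 h 31.9% of the genes were higher and 31.3% lower without pyruvate. Of the 7815 genes higher at 55 h, 4160 (53.2%) were also among the 6618 higher at 52 h (62.9% of these). Of the 4039 lower at 55 h, 3053 (75.6%) were also among the 6501 lower at 52 h (47.0% of these). Genes with opposite calls were 713 higher at 55 h and lower at 52 h, and 209 the other way round.

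The change of the difference itself passed for 8853 genes (42.7%), of which 6440 were more positive and 2413 more negative at 55 h. The more positive share was 72.7%, against 52.8% with median-ratio and 51.5% with quantile scaling, and the median of all genes, 0.35, moved to 0.04 and -0.01. Among ribosome biogenesis genes 42 of 51 were more positive and none more negative, and the median log2 difference was -0.49 at 55 h against -1.66 at 52 h. Ribosomal proteins had 41 of 79 more positive and 2 more negative, with medians of -1.02 at 55 h and -1.87 at 52 h. Mitochondrially encoded genes had 14 of 15 more positive, with medians of 1.72 at 55 h and 0.34 at 52 h. Burst genes had 29 of 53 more positive and 4 more negative, whereas oocyte transcripts had 9 more positive and 15 more negative of 52.

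Myc and Mrpl19 were lower at both ages, and less so at 55 h. Myc differed by -1.50 on the log2 scale at 55 h and by -3.31 at 52 h (difference 1.80, SE 0.40, adjusted p = 4.8e-04). Mrpl19 differed by -2.36 at 55 h and by -4.22 at 52 h (difference 1.86, SE 0.35, adjusted p = 7.2e-05).

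Other genes had estimates of opposite sign at the 2 ages. The p-values given are for the change of the difference, not for each sign. Hes1, a repressor of the Notch pathway, differed by -1.52 at 55 h and 3.46 at 52 h (difference -4.98, SE 0.43, adjusted p = 2.7e-10). Its level at 55 h was 8.47, 8.09, 20.7 and 12.7 CPM without pyruvate, against 33.5, 42.1, 37.3 and 29.1 CPM in 4-cell embryos. Mtap, of methionine salvage, differed by -1.99 at 55 h and 2.70 at 52 h (difference -4.70, SE 0.34, adjusted p = 8.1e-12). Pdhx differed by -1.96 at 55 h and 0.54 at 52 h (difference -2.50, SE 0.25, adjusted p = 3.4e-09).

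In the other direction, Calml4, a calmodulin-like gene, differed by 3.75 at 55 h and -0.42 at 52 h (difference 4.17, SE 0.40, adjusted p = 1.3e-09). The value at 52 h is close in size to this SE and is not read as a fall. At 55 h Calml4 had 147, 87.95, 93.6 and 137 CPM without pyruvate, against 4.84, 18.3, 4.26 and 7.91 CPM in 4-cell embryos. Ceacam1, an adhesion molecule, differed by 3.52 at 55 h and -1.06 at 52 h (difference 4.58, SE 0.67, adjusted p = 2.0e-06).

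**Figure D5:**
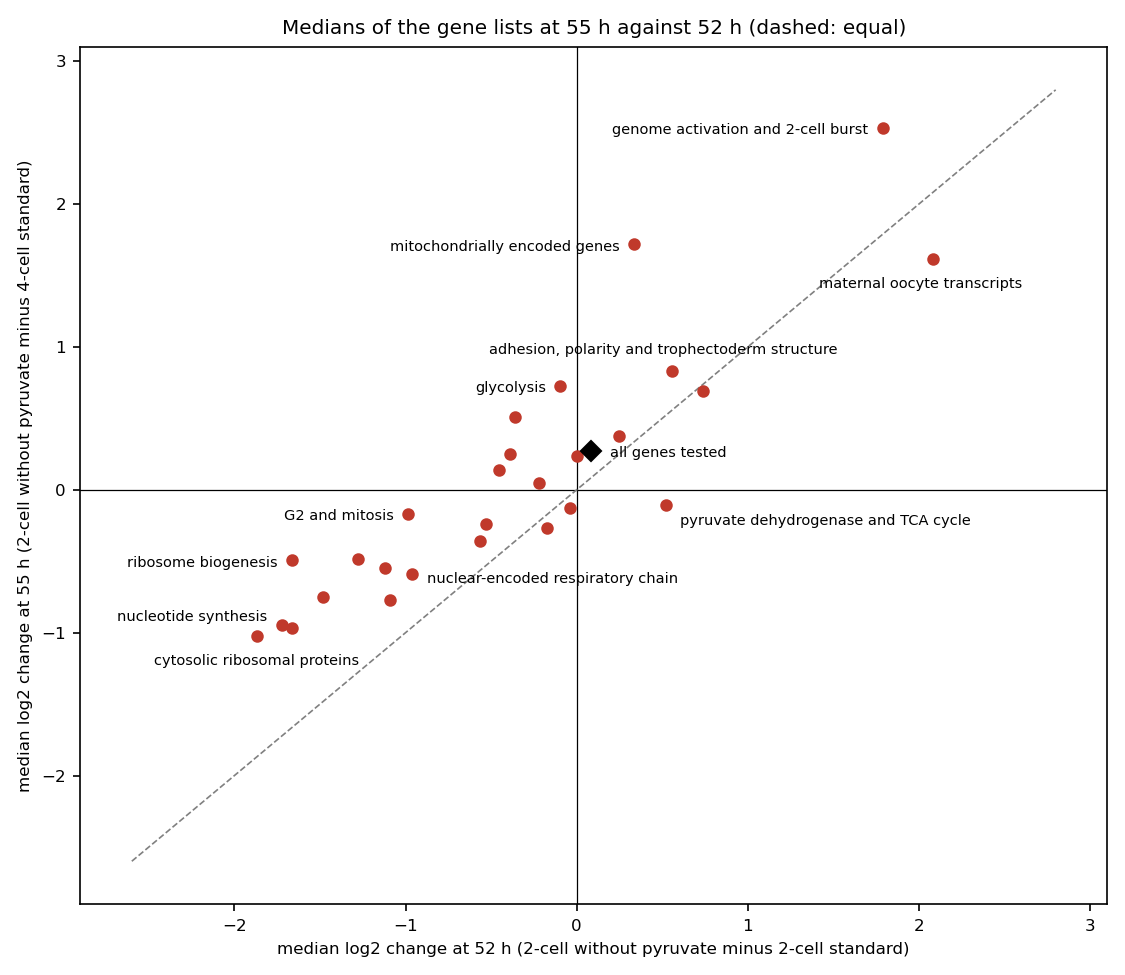
Median log2 difference of each gene list at 55 h (2-cell embryos without pyruvate minus 4-cell embryos, vertical axis) against that at 52 h (2-cell embryos without pyruvate minus standard 2-cell embryos, horizontal axis); each point is a list, the diamond is all genes and the dashed line marks equal values. Ribosome biogenesis lies above the line, at -0.49 against -1.66, and oocyte transcripts lie below it, at 1.61 against 2.08.

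Markers of other cells were looked at in the same libraries. None of 8 cumulus and granulosa markers tested of 17 listed passed, and their summed level was 77.3 to 99.6 CPM without pyruvate and 63.3 to 96.4 CPM in 4-cell embryos. Of 4 blood markers tested of 10 listed, 3 rose, and the sum was 65.0 to 93.9 CPM without pyruvate, against 10.6 to 26.8 CPM in 4-cell embryos. Most of it was Hba-a2, an alpha-globin gene with a near-identical copy, at 40.1, 52.4, 61.8 and 58.7 CPM without pyruvate, against 7.47, 5.59, 14.4 and 7.76 CPM in 4-cell embryos. Hba-a2 averaged 40.7 ± 5.82 CPM in standard 2-cell embryos at 52 h (SD, n = 3). Of 2 sperm markers tested of 10 listed, Odf2 rose, with 64.3, 132, 205 and 182 CPM without pyruvate, against 31.1, 20.6, 15.6 and 18.5 CPM in 4-cell embryos, and Prm2 did not pass. The part of these markers in the results was not tested.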

How the data were processed

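RNA was measured by Smart-seq2, which primes cDNA at poly(A) tails, in 85 libraries, of which 8 are compared here. The authors deposited CPM values (read counts scaled to a common total per library), with reads aligned by STAR 2.6.1d to mm10, per the submitters' processing notes; the counting tool and whether it used strand are not given in the sources used here. A constant of 1e-04 CPM contained in the table was subtracted. Columns matched to no sample (6) were not used, and 26 gene names that had become numbers were left out (0.128% to 0.174% of the values). Whole reads could not be recovered: 71.2% to 73.0% of low values lay within 0.1 of a whole number, so no count test was run.

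A gene was tested if 3 or more libraries of the fit exceeded 1 CPM. The test was limma 3.58.1 (R 4.3.3, trended variance) on log2(CPM + 1), with a single model of all standard and pyruvate-free groups of 34 to 55 h, no replicate block, and Benjamini-Hochberg adjustment over 20737 genes at 0.05. Single values per library had exact permutation tests (Python 3.11.15, scipy 1.17.1). In simulated data for this comparison of 20737 genes, 70 of 100 genes changed by 1 log2 unit and 100 of 100 changed by 2 were recovered, with 11 false calls. The simulation changed only 200 genes, none of the lowest levels, and gave all groups the same spread. In the data 57.2% of genes were called and spread differed between groups, so these figures do not give the error of those calls. Gene positions and lengths came from GENCODE vM21 and promoters from RefSeq, GRCm38.p6. Counting error at 1 CPM is given with the depth.

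The libraries compared, the gene lists and the tests were chosen with earlier results of these data known. Named genes followed a rule: the 10 largest rises and falls with at least 20 CPM and no overlap, up to 3 members of each list, all members of the list of pyruvate handling, the genes farthest outside the standard course, and the largest differences between 55 h and 52 h. Genes named outside it (Khdc3, Oosp1, Wee2, Rpl41, Rps26, Psmd5, Zscan4c, Zscan4d, Dppa2, Timd2 and the burst genes that fell, mt-Cytb, mt-Nd6, Pkm, Gins1, Tyms, Impdh2, Atic, Dtymk, Trp53, Pou5f1, Amhr2, Odf2 and Prm2) were chosen after their values were seen. Zp3, H1foo, Obox6 and Cdh1 were named as the remaining embryo markers. Alternatives were another pseudocount (0.1), 2 filters, 2 scalings, removal of the length trend, fits of fewer samples, a replicate block and leaving out each library.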

Additional observations from a re-analysis of the deposited data

Results flagged for a closer look

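In 2-cell embryos without pyruvate, 1723 genes (8.31%) had 1 of the 4 libraries far from the other 3, and in 4-cell embryos 2292 genes (11.1%) did; chance gives about 1 in 20 genes. No single library held most of them: libraries 1 to 4 stood apart for 480, 474, 438 and 331 genes without pyruvate and for 708, 536, 506 and 542 genes in 4-cell embryos.

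The difference between media at 55 h differed from that at 52 h for 8853 of 20737 genes by the limma contrast of the 2 differences, including genes whose standard embryos changed on reaching 4 cells.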

How the results depend on the processing

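The count of 11854 genes changed at 55 h came to 5936 among genes with a mean of at least 10 CPM, where 8825 genes were tested, and lay between 10832 and 11941 without 1 library. With only the 8 libraries in the fit it was 8264, and 7774 when their replicate numbers were a block, each of 17173 genes tested. Same-numbered libraries did not deviate together over all genes (correlations -0.0819, -0.0231, -0.032 and 0.0035). This cannot settle whether libraries shared a batch, since nothing says that the numbers of the titles mark one. Column names number the libraries without pyruvate differently from the titles. The change of the difference passed for 5159 genes of at least 10 CPM, 5915 with the replicate block and 8056 to 9084 without 1 library. Genes below the standard course numbered 217 against the range of the libraries and 871 under median-ratio scaling, in place of 394. Genes above it numbered 2677 and 2662, in place of 3834. The cause was not tested. The excess of genes above 1 CPM was 2328 to 2698 without 1 library, at an exact p of 0.057, the smallest that 4 against 3 libraries allow.

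For gene lists, the balance of higher minus lower members turned round as follows. With the length trend removed it was -1 for pyruvate and MYC genes, -2 for p53 targets, -1 for the integrated stress response, -4 for the unfolded protein response, -7 for redox genes, -2 for cholesterol synthesis and -8 for chromatin modifiers. Under median-ratio scaling it was -2 for the unfolded protein response, -7 for redox genes and -2 for cholesterol synthesis, and under quantile scaling -6 for redox genes. Among genes of at least 10 CPM it was -2 for the integrated stress response and -1 for redox genes. Without 4-cell library 3 or library 2 without pyruvate it was -1 for redox genes. For lineage factors it was 1 with the replicate block, without 4-cell library 4 and without library 3 without pyruvate. Between 111 and 123 of the 123 named genes kept their direction and side of the threshold in each setting, and none turned round. Low genes are limited by the depth of the libraries without pyruvate.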
